A study of Mus musculus with 6 samples.

Results

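The genes described here are 32 genes of DNA replication and S phase. They were named from general knowledge of the process, with earlier results of these data known. Each was sought in the array table as a row annotated with exactly 1 gene symbol. All 32 had such a row, out of 19938 genes with one. For Pcna, Slbp and Tk1, which had several rows, the brightest row was used (by its mean over the 6 arrays), and no gene was removed for a dim signal. Each RNA sample was made from all epithelial cells of the jejunum, which is the middle stretch of the mouse small intestine. In the transgenic group, 3 animals carried a doxycycline-inducible Musashi transgene together with R26-M2rtTA, the doxycycline-dependent activator expressed from the Rosa26 locus, which is active in most cell types. The control group, also 3 animals, carried R26-M2rtTA alone. Doxycycline was given in the drinking water for 24 h in both groups, so every animal had the activator and the drug. The genotype label of the transgenic samples is TRE-MSI2::R26-M2rtTA, whereas the design text gives TRE-Msi1. The Msi1 signal was 12.51, 12.68 and 12.62 on the transgenic arrays, against 6.95, 7.03 and 6.86 on the control arrays, a difference of 5.66 (limma adjusted p = 1.34e-05). Msi2 was 8.57, 8.08 and 8.01 against 8.59, 8.71 and 8.62. Its groups did not overlap, but its difference of -0.42 did not pass (adjusted p = 0.168). Without transgenic replicate 1, a fit explained below, Msi2 fell by 0.59 (adjusted p = 0.0011). Msi1 was thus the transcript that was high on the transgenic arrays. All levels are log2 array signals, and a difference is transgenic minus control on that scale. Levels of different genes are not compared, because each row has its own probes.

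Replication is prepared in G1, when the origin recognition complex, Cdc6 and Cdt1 load the ring of MCM proteins onto DNA. At the entry into S phase, cyclin E and the transcription factors of the E2F family drive the expression and activation of this machinery, and Cdc45 and the GINS complex turn the loaded ring into a moving helicase. Polymerases, the sliding clamp PCNA and its loader then copy the strands, while nucleotide enzymes and histone chaperones supply dNTPs and new chromatin. In the small intestine these genes are used by the dividing cells of the crypts, and the absorptive cells of the villus no longer divide. In such a bulk sample, fewer dividing cells and less RNA per dividing cell cannot be told apart.

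One array must be named before the results. Transgenic replicate 1 correlated with the 5 other arrays at 0.922 to 0.951 across genes, against 0.996 between transgenic replicates 2 and 3 and 0.995 to 0.996 among the controls. The tests below were therefore run with and without it, and the choice to leave it out was made with the data known. Array medians lay between 6.27 and 6.34, and the 3 arrays per group limit the precision of each difference. Epithelial markers (Epcam, Cdh1, Vil1, Krt8, Krt18, Cdx2 and Cldn7) had mean levels of 11.34, 11.51 and 11.51 on the transgenic arrays and 11.50 to 11.53 on the control arrays. These means join markers that lay apart. On replicate 1, Vil1 differed from the control mean by -1.33 and Krt18 by 1.30. There 5 of 7 were below all controls and 2 above, against 45.6% and 32% of all genes. Over all arrays 1 of the 7 rose, Cdh1, by 0.34 (limma adjusted p = 0.0415), against 6.04% of all genes. Without transgenic replicate 1 Cdh1 rose while Vil1 and Cdx2 fell, where 14% of all genes rose and 14.5% fell. Markers of leukocytes, stroma, vessels and muscle were mixed in level. Cd4, Cd79a, Csf1r, Pdgfra, Pecam1, Kdr, Des and Myh11 were below the lowest array median, 6.27, on all 6 arrays. Cd3e, Lyz2, Vim, Col1a1, Col3a1 and Acta2 were above that value on all 6 arrays. Ptprc and Cd8a were above it on every array but transgenic replicate 1.

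Promoters of these genes are shown first, because E2F factors are known to act on replication genes as a class. The sequences are from RefSeq promoter windows of assembly GRCm38.p6, each with 250 bases before and 50 bases after an annotated gene start. Such windows were found for 28 of the 32 genes, and not for Mcm4, Gins1, Gins2 and Ccne2. The 8-letter words TTTCCCGC, TTTGGCGC, TTTCGCGC and TTTGCCGC, which are forms of the E2F motif, were searched on both strands, and matches were allowed to overlap each other. They occurred in 11 of 28 genes (39.3%), against 2.6% of all 27025 genes in the promoter table. By promoter, 33.3% of the 33 windows of the listed genes held a word, against 2.26% of 32851 windows. Each of the 11 genes had its words in a single window. Lig1, with 3 windows, and Mcm7 and Uhrf1, with 2 each, thus also had windows without a word. A match is a run of letters and not a measured binding site. The Mcm6 promoter held the most, with 3 words, of which 2 overlap, and is printed whole (chr1:128359656-128359955, minus strand), with the words in capitals.
Mcm6: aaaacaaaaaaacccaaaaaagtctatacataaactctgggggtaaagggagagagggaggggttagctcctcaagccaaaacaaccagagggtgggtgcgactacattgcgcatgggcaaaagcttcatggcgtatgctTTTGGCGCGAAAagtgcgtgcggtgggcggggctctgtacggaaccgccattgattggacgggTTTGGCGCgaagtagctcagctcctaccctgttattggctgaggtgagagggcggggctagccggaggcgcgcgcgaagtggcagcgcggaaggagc

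Of the 11 genes, 8 were lower on transgenic replicates 2 and 3 than in the controls, by the test given below. Mcm6 is one of them, and the part around the leading word (for Mcm7, the one of its 2 words farther from the gene start) of the other 7 follows, again with the words in capitals and read along the strand of the gene.
Mcm5: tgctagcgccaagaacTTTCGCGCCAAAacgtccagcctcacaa
Mcm7: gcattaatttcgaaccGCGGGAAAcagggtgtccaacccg
Cdt1: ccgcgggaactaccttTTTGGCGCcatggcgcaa
Pola1: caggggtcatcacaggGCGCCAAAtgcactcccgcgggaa
Pold1: ggcggcgtatcttgtgGCGGGAAAagc
Lig1: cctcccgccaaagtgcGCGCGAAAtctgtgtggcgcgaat
Uhrf1: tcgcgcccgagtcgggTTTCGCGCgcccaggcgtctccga
These stretches lie, for Mcm5 at chr8:75109340-75109383 (plus strand), Mcm7 at chr5:138172025-138172064 (minus strand), Cdt1 at chr8:122568031-122568064 (plus strand), Pola1 at chrX:93632270-93632309 (minus strand), Pold1 at chr7:44548766-44548792 (minus strand), Lig1 at chr7:13278836-13278875 (plus strand) and Uhrf1 at chr17:56304112-56304151 (plus strand). The remaining 3 genes with a word were not called on those arrays, and their stretches were as follows.
Mcm3: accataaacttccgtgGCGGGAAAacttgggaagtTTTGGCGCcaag
Cdc6: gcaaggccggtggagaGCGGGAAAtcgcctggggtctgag
Rfc3: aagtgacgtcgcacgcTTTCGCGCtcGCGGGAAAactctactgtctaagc
They lie, for Mcm3 at chr1:20820263-20820309 (minus strand), Cdc6 at chr11:98907997-98908036 (plus strand) and Rfc3 at chr5:151651185-151651234 (minus strand). The word was thus present both in genes that were lower and in genes that were not, in 8 of 19 of the lower genes with a promoter in the table and in 3 of 9 of the genes not called. Tk1, E2f1 and Ccne1, described below, held none of these words in their windows. The CCAAT box, CCAAT on either strand, was in 16 of 28 genes (57.1%), against 41.1% of all genes.

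**Figure D1:**
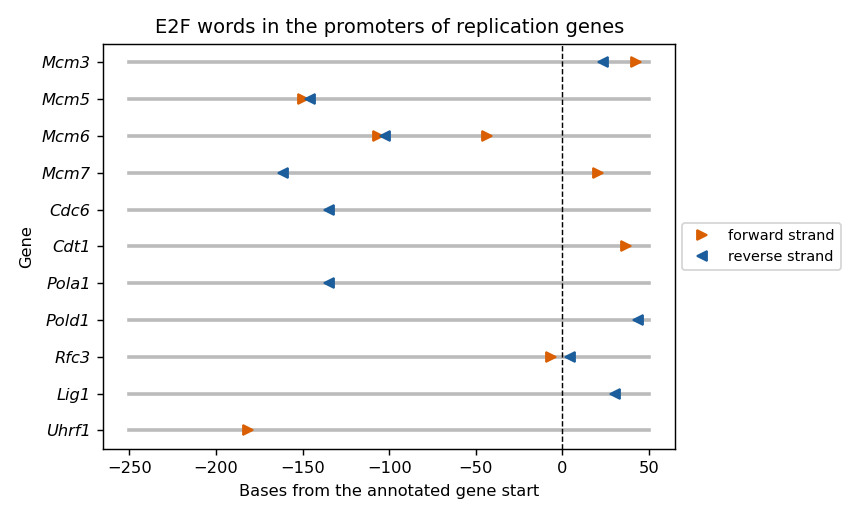
Positions of the E2F words in the promoters of the 11 replication genes that held one, in bases from the annotated gene start (dashed line). Grey lines are the 300-base windows that held a word, and arrowheads give the strand of each word. Mcm6 has 3 words, Mcm3, Mcm5, Mcm7 and Rfc3 have 2 each and the other genes have 1 each.

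Over all 6 arrays, the transgenic epithelium differed from the control epithelium in 1 replication gene. Tk1, the cytosolic thymidine kinase that recycles thymidine into the dTTP pool in S phase, fell by 1.04 (SE 0.104, limma adjusted p = 0.00362), which is 2.06-fold. None of the 32 genes rose, and 0 were higher and 4 lower at an unadjusted p under 0.05. The background in the same test was 11.9% of 19938 genes, 5.84% lower and 6.04% higher, so that 1 of 32 is not above it. The other 31 differences lay between -0.65 and 0.65. The median difference of the 32 genes was 0.00, against -0.04 over all genes. A median near 0 here joins arrays that moved in opposite directions.

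On transgenic replicate 1, 28 of the 32 genes lay above all 3 controls and 4 lay below them. The background shares of all genes were 32% above and 45.6% below. On transgenic replicates 2 and 3, 23 of the 32 genes lay below all controls on both arrays, against 25.7% of all genes. Only 1, Fen1, lay above them on both, against 22.7% of all genes. The combination, replicate 1 above and replicates 2 and 3 below every control, was seen in 19 of 32 genes and in 5.1% of all genes. All 32 genes were higher on replicate 1 than on either of the other transgenic arrays, against 33.7% of all genes. The median over the 32 genes, relative to the control mean, was 0.83 on replicate 1, -0.40 on replicate 2 and -0.44 on replicate 3, and the control arrays lay between -0.02 and 0.03. The median SD of these genes was 0.71 over the transgenic arrays and 0.08 over the control arrays, against 0.17 and 0.09 for all genes.

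**Figure D2:**
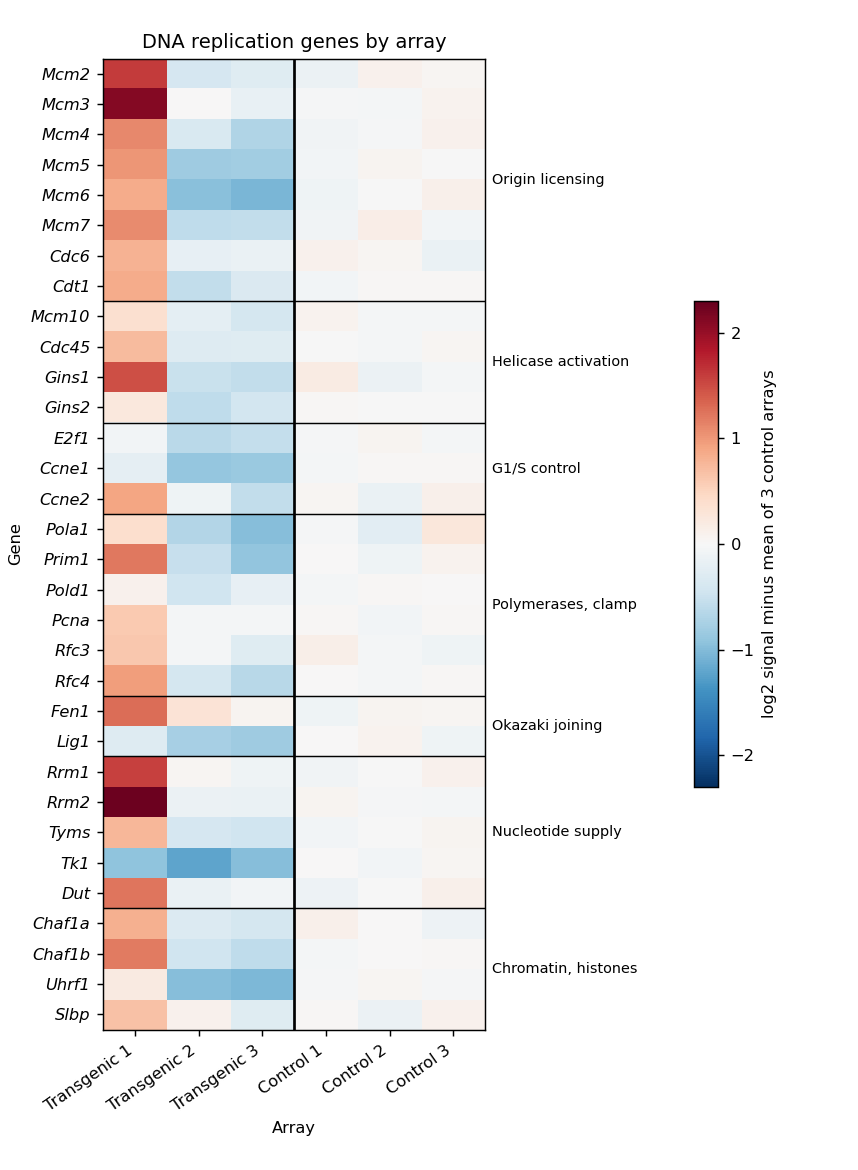
Log2 signal of each replication gene on each array minus its mean over the 3 control arrays, with genes in rows ordered by role and arrays in columns, transgenic left of the black line and control right of it. Transgenic replicate 1 is red for 28 of 32 genes, whereas replicates 2 and 3 are mostly blue and the controls are near white.

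Without transgenic replicate 1, 22 of the 32 genes fell and 0 rose at an adjusted p under 0.05, and also at an unadjusted p under 0.05. The same fit called 28.6% of all genes, 14.5% as lower and 14% as higher. The median of the 32 differences was -0.44, against -0.03 for all genes, and 31 of 32 differences were negative. Falls of the called genes ran up to 1.10, the value of Tk1, which had the largest fall of the 32 in this fit. With a further array left out, 17 or 18 genes were lower, and 15 of the 22 were called in each of these 5 settings. The other 7, Mcm2, Mcm4, Mcm10, Cdc45, Cdt1, Pold1 and Chaf1a, lost the call in at least 1 of them. Mcm4 lost it without transgenic replicate 3 (adjusted p = 0.054) and Cdt1 without transgenic replicate 2 (adjusted p = 0.0516), while each of the other 5 kept it in 1 setting only, with adjusted p up to 0.264 for Pold1. The sections that follow take the genes by role, with the test on all 6 arrays and then on the 5 arrays.

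**Figure D3:**
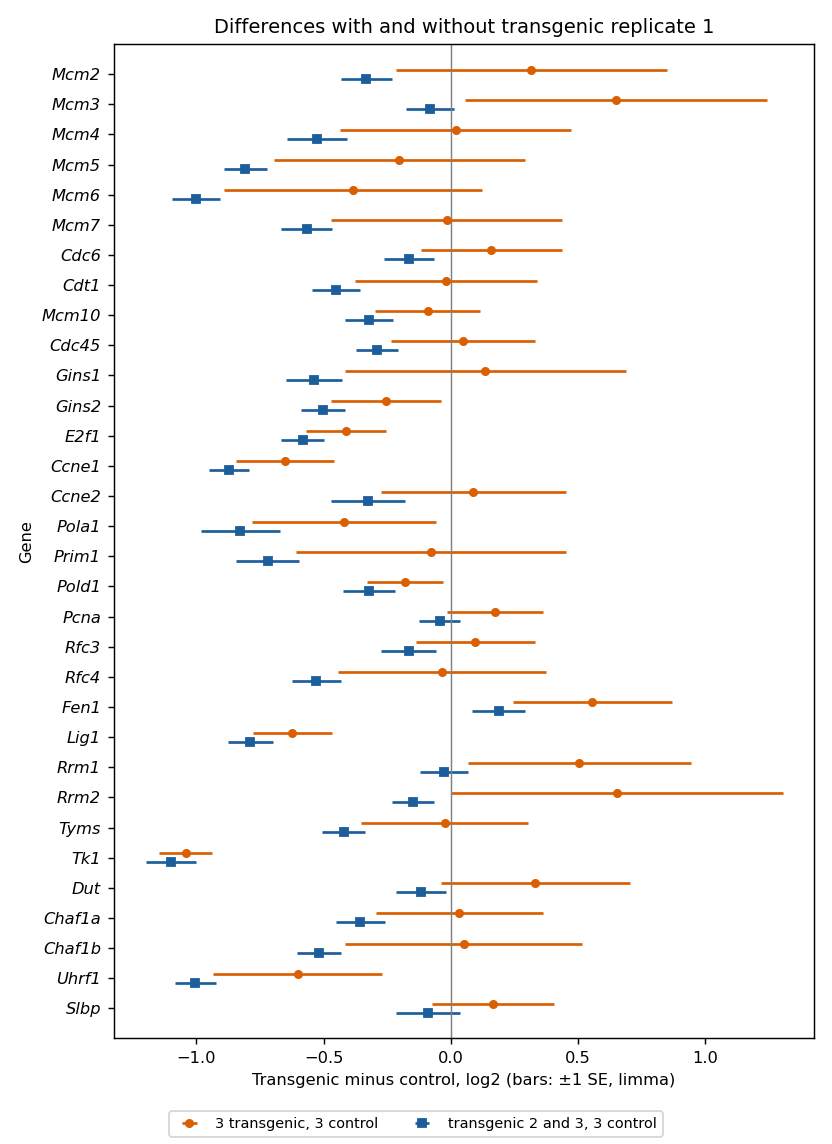
Difference of each replication gene, transgenic minus control, in log2 units with bars of 1 SE from limma, over all 6 arrays (orange circles) and over the 5 arrays without transgenic replicate 1 (blue squares). The orange bars are wide and straddle 0 for most genes, and the blue squares lie left of 0 for 31 of 32 genes.

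Origin licensing genes were split by array. The helicase ring is made of the products of Mcm2, Mcm3, Mcm4, Mcm5, Mcm6 and Mcm7, and Cdc6 and Cdt1 load it. All 8 genes were above every control on transgenic replicate 1, against 32% of all genes. On the 5 arrays 6 of 8 fell, against 14.5% of all genes. Mcm6 had 9.20, 7.38 and 7.30 on the transgenic arrays, against 8.24, 8.33 and 8.46 on the control arrays. Replicates 2 and 3 were thus lower than each control, by 1.00 on average (SE 0.0948, adjusted p = 1.41e-04), and replicate 1 was higher than each control, so that the difference over all arrays was -0.38 (SE 0.507, adjusted p = 0.729). Mcm5 showed the same split, with 9.61, 7.78 and 7.81 on the transgenic arrays and 8.54, 8.66 and 8.60 on the control arrays, and fell by 0.81 on the 5 arrays (SE 0.0833, adjusted p = 2.14e-04). Mcm7 had 9.87, 8.21 and 8.22 on the transgenic arrays, against 8.69, 8.94 and 8.71 on the control arrays, and fell by 0.57 on the 5 arrays (adjusted p = 0.00311). Mcm4 had 8.87, 7.40 and 7.06 against 7.68, 7.74 and 7.86, and fell by 0.53 (adjusted p = 0.00981). Mcm2 had 10.06, 8.05 and 8.16 against 8.30, 8.54 and 8.48, and fell by 0.33 (adjusted p = 0.0385). In all 3 of these subunits replicates 2 and 3 were below every control and replicate 1 was above every control. That combination was seen in 5.1% of all genes.

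Mcm3, another subunit of the ring, was close to the controls on replicates 2 and 3. It had 9.29, 7.19 and 7.0 on the transgenic arrays, against 7.15, 7.13 and 7.25 on the control arrays, so replicate 2 lay within the control range, replicate 3 below it, and replicate 1 was 4.31-fold above their mean. Its difference on the 5 arrays was -0.08 (SE 0.0944, adjusted p = 0.641). Whether the 6 subunits differ from each other was not tested. Cdt1, which delivers the ring to origins, had 8.99, 7.58 and 7.80 on the transgenic arrays and 8.09, 8.18 and 8.16 on the control arrays, a fall of 0.45 on the 5 arrays (SE 0.0956, adjusted p = 0.00789). Cdc6, its partner in loading, had 7.43, 6.44 and 6.48 against 6.73, 6.67 and 6.48, and its difference of -0.16 on the 5 arrays did not pass (adjusted p = 0.298).

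The 4 genes of helicase activation shared 1 pattern over the arrays. Mcm10, Cdc45, Gins1 and Gins2 were all above the controls on transgenic replicate 1 and all below them on replicates 2 and 3. That combination was seen in 19 of the 32 genes and in 5.1% of all genes, so it was not particular to this role. All 4 fell on the 5 arrays, against 14.5% of all genes. Gins1, a subunit of the GINS complex, had 7.54, 5.55 and 5.49 on the transgenic arrays, against 6.24, 5.93 and 6.01 on the control arrays. That was 2.79-fold above the control mean on replicate 1 and a fall of 0.54 on the 5 arrays (SE 0.109, adjusted p = 0.0062). Gins2, another GINS subunit, had 8.01, 7.18 and 7.34 on the transgenic arrays, against 7.78, 7.75 and 7.74 on the control arrays, and fell by 0.50 (SE 0.0866, adjusted p = 0.00283). Mcm10, an initiation factor that helps the helicase start, had 8.02, 7.41 and 7.23 against 7.74, 7.61 and 7.59, and fell by 0.32 (adjusted p = 0.0354). Cdc45, which joins the ring to activate it, had 8.18, 7.16 and 7.18 against 7.45, 7.42 and 7.51, and fell by 0.29 (adjusted p = 0.0288). Over all arrays the 4 differences lay between -0.25 and 0.14, and 0 passed, at an unadjusted p under 0.05 too.

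The G1/S regulators E2f1 and Ccne1 were below all controls on every transgenic array. Groups that did not overlap, in either direction, were seen in 34.2% of all genes. E2f1, the founding activator of the E2F family, had 6.33, 5.78 and 5.85 on the transgenic arrays, against 6.37, 6.47 and 6.36 on the control arrays. The groups did not overlap, although replicate 1 differed from the control mean by -0.07, and the difference over all arrays was -0.41 (SE 0.157, adjusted p = 0.169). On the 5 arrays it fell by 0.58 (SE 0.0845, adjusted p = 0.00117). Ccne1, which encodes cyclin E1, the partner of Cdk2, had 7.54, 6.85 and 6.89 against 7.70, 7.76 and 7.77, again without overlap. Its difference over all arrays was -0.65 (SE 0.193, adjusted p = 0.0891), and on the 5 arrays it fell by 0.87 (SE 0.0806, adjusted p = 1.28e-04), or 1.83-fold. Ccne2, for the related cyclin E2, had 7.99, 6.98 and 6.52 on the transgenic arrays and 7.12, 6.93 and 7.19 on the control arrays. Those groups overlapped, and -0.33 on the 5 arrays did not pass (adjusted p = 0.148).

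Among polymerase and clamp genes, those for the enzymes that start and extend strands fell on the 5 arrays and that for the clamp itself did not pass. Pola1, the catalytic subunit of polymerase alpha, had 7.71, 6.64 and 6.34 on the transgenic arrays, against 7.28, 7.08 and 7.58 on the control arrays. It fell by 0.83 on the 5 arrays (SE 0.155, adjusted p = 0.00424). Prim1, the primase subunit that makes the RNA primer, had 8.54, 6.80 and 6.42 against 7.35, 7.23 and 7.41, and fell by 0.72 (SE 0.125, adjusted p = 0.00292). These 2 genes had replicates 2 and 3 below every control and replicate 1 above. Pold1, the catalytic subunit of polymerase delta, had 7.37, 6.80 and 7.08 against 7.23, 7.29 and 7.27, and fell by 0.32 (adjusted p = 0.0476), the weakest of the 22 calls by adjusted p. Rfc4, a subunit of the clamp loader, had 10.36, 8.99 and 8.76 against 9.42, 9.37 and 9.43, and fell by 0.53 (SE 0.0958, adjusted p = 0.00362).

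Pcna, the sliding clamp and a common marker of proliferating cells, had 11.53, 10.87 and 10.88 on the transgenic arrays, against 10.94, 10.87 and 10.95 on the control arrays. Replicates 2 and 3 lay within the control range, and the difference on the 5 arrays was -0.04 (SE 0.0813, adjusted p = 0.796). A second Pcna row gave -0.05 on the 5 arrays. Rfc3, another clamp loader subunit, differed by -0.17 (adjusted p = 0.339), with 9.03, 8.35 and 8.13 on the transgenic arrays and 8.54, 8.37 and 8.32 on the control arrays. All 6 genes of this role were above the controls on replicate 1, by 0.11 for Pold1 to 1.21 for Prim1. Among all genes 32% were above them there.

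The 2 genes that finish Okazaki fragments, the short pieces of the lagging strand, lay on opposite sides of the controls. Lig1, the DNA ligase that seals them, had 7.65, 7.18 and 7.14 on the transgenic arrays, against 7.95, 8.03 and 7.85 on the control arrays. The groups did not overlap. The difference over all arrays was -0.62 (SE 0.157, adjusted p = 0.0554), and on the 5 arrays Lig1 fell by 0.79 (SE 0.089, adjusted p = 3.38e-04). Fen1, the flap endonuclease that trims the fragments before ligation, had 8.68, 7.69 and 7.45 against 7.28, 7.45 and 7.42. It was the only one of the 32 genes with all transgenic arrays above all controls, at replicate 3 by a margin within the control spread. Its differences of 0.56 over all arrays (SE 0.312, adjusted p = 0.354) and 0.19 on the 5 arrays (adjusted p = 0.25) did not pass. In all, 5 of 32 genes had groups that did not overlap, namely Tk1, Ccne1, Lig1, E2f1 and Fen1, against 34.2% of all genes.

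Nucleotide supply held both the gene with the lowest and the gene with the highest value on transgenic replicate 1 relative to the controls. Tk1 had 7.10, 6.80 and 7.03 on the transgenic arrays, against 8.03, 7.96 and 8.07 on the control arrays. All transgenic arrays were low, the spread was small (6.98 ± 0.16 against 8.02 ± 0.06, SD, n = 3 each), and the call was kept without any 1 array (adjusted p up to 0.0323, without control replicate 1). A second Tk1 row gave 6.72, 6.72 and 7.17 against 8.01, 8.16 and 8.03, a fall of 1.19 (SE 0.144, adjusted p = 0.00621 over all rows). Rrm2, the regulated small subunit of ribonucleotide reductase, which makes deoxyribonucleotides, had 10.52, 8.11 and 8.10 against 8.32, 8.24 and 8.21. Replicate 1 was 4.79-fold above the control mean, and replicates 2 and 3 were below the controls by 0.15 (adjusted p = 0.247), a difference that did not pass.

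Rrm1, the large subunit of the same enzyme, had 10.80, 9.27 and 9.13 on the transgenic arrays, against 9.15, 9.21 and 9.33 on the control arrays, with a difference of -0.03 on the 5 arrays (SE 0.094, adjusted p = 0.901). Dut, the dUTPase that keeps uracil out of DNA, had 9.20, 7.81 and 7.89 against 7.85, 7.96 and 8.09, with a difference of -0.12 (adjusted p = 0.488). Tyms, thymidylate synthase of the de novo route to dTTP, had 9.33, 8.18 and 8.09 against 8.50, 8.55 and 8.63. It fell by 0.42 on the 5 arrays (SE 0.0857, adjusted p = 0.00642), so that the salvage enzyme Tk1 was low on 3 transgenic arrays and Tyms on 2.

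**Figure D4:**
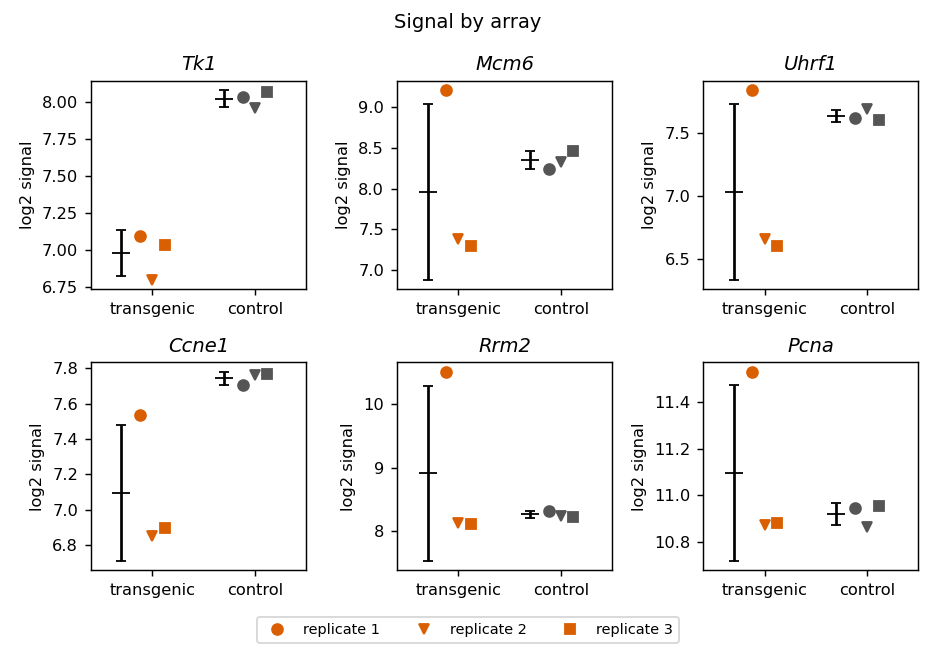
Log2 signal of 6 replication genes on each array, transgenic left and control right, with symbols for the replicate and a mean with SD bars (n = 3) beside each group. Tk1 and Ccne1 are below the controls on all transgenic arrays, Ccne1 least so on replicate 1. Mcm6 and Uhrf1 are above the controls on replicate 1 and low on replicates 2 and 3. Rrm2 and Pcna are high on replicate 1 and near the controls on replicates 2 and 3.

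Of the genes that couple replication to chromatin, Uhrf1, Chaf1a and Chaf1b fell on the 5 arrays. Uhrf1, which recruits the maintenance DNA methyltransferase to new strands, had 7.84, 6.66 and 6.61 on the transgenic arrays, against 7.62, 7.69 and 7.60 on the control arrays. It fell by 1.00 (SE 0.0819, adjusted p = 6.93e-05), or 2.01-fold, and over all arrays it differed by -0.60 (SE 0.333, adjusted p = 0.346). Chaf1b had 8.74, 7.11 and 6.97 against 7.52, 7.56 and 7.59, and fell by 0.52 (SE 0.0858, adjusted p = 0.00232). Chaf1a, which with Chaf1b forms the histone chaperone CAF-1, had 7.76, 6.64 and 6.55 against 7.06, 6.96 and 6.83, and fell by 0.36 (adjusted p = 0.0243). Slbp, the binding protein of histone mRNA stem-loops, had 8.96, 8.38 and 8.01 against 8.31, 8.15 and 8.38, and its difference of -0.09 did not pass (adjusted p = 0.715). A second Slbp row differed by 0.05 on the 5 arrays, on the other side of 0.

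The 10 genes not called on the 5 arrays were Mcm3, Cdc6, Ccne2, Pcna, Rfc3, Fen1, Rrm1, Rrm2, Dut and Slbp. Each of them was above all controls on transgenic replicate 1, at 0.61 (Pcna) to 2.26 (Rrm2) above the control mean. Among all genes 32% were above all controls there. The 4 genes below all controls on replicate 1, which differed from the control mean by -0.92 for Tk1, -0.29 for Lig1, -0.21 for Ccne1 and -0.07 for E2f1, were all among the 22 that fell. The adjusted p of a gene not called does not show that its level was the same in both groups.

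The rest of the replication machinery was taken from a list of 74 genes, of which 72 had a row used here. Over all arrays, 3 rose and 2 fell, shares below the 6.04% higher and 5.84% lower of all genes, so these counts are no result about the list. Dck, deoxycytidine kinase of the salvage pathway, had 8.75, 8.95 and 8.74 on the transgenic arrays, against 7.33, 7.11 and 7.30 on the control arrays, and rose by 1.57 (SE 0.105, adjusted p = 0.00158). Rrm2b, the alternative small subunit of ribonucleotide reductase known as a p53 target, had 8.04, 8.16 and 8.04 against 7.14, 6.87 and 7.01, and rose by 1.08 (SE 0.0994, adjusted p = 0.00305). Both kept the call without any 1 array. They had all 3 transgenic arrays above the controls, whereas Tk1, also of nucleotide supply, had all 3 below. Among all genes 34.2% had groups that did not overlap. Donson, a factor of helicase assembly and fork protection, had 7.52, 7.66 and 7.54 against 7.10, 7.10 and 7.12, and rose by 0.46 (adjusted p = 0.0168). Mcm9, a helicase relative of the MCM family known for its role in recombination, had 6.87, 6.79 and 6.73 against 7.51, 7.35 and 7.39, and fell by 0.62 (adjusted p = 0.00879). E2f2, an E2F activator, had 7.09, 6.75 and 6.80 against 7.33, 7.35 and 7.37, and fell by 0.47 (adjusted p = 0.0427).

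Donson lost its call when transgenic replicate 2 or any of the controls was left out (adjusted p up to 0.0934), Mcm9 without control replicate 1 (adjusted p = 0.0572) and E2f2 without any array but transgenic replicate 1 (adjusted p up to 0.154). On the 5 arrays 28 of the 72 genes fell, above the 14.5% of all genes, and 6 rose, below the 14% of all genes, with a median difference of -0.22. The largest falls there, named after their values were seen, were those of E2f8, an E2F repressor, by 1.27 (adjusted p = 2.28e-04), of Pole, the catalytic subunit of polymerase epsilon, by 1.06 (adjusted p = 1.10e-04) and of Wdhd1, a fork protein, by 1.04 (adjusted p = 1.83e-04). The 6 rises were of Dck by 1.60, Rrm2b by 1.10, Pole4 by 0.70, Orc2 by 0.65, E2f6 by 0.62 and Donson by 0.49. Their adjusted p was at most 0.00275, the value of Orc2. By array, the median of the 72 genes relative to the control mean was 0.64 on transgenic replicate 1, -0.20 on replicate 2 and -0.27 on replicate 3. On replicate 1, 63 of 72 were above all controls, against 32% of all genes.

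Genes of the later part of the cell cycle were set beside these. Of 20 G2/M genes with a row, from a list of 21, 1 rose over all arrays, Nusap1, a protein of the mitotic spindle, with 9.38, 9.24 and 9.02 on the transgenic arrays, against 8.48, 8.43 and 8.73 on the control arrays (difference 0.67, SE 0.133, adjusted p = 0.0274). A count of 1 in 20 is near the 6.04% of all genes called higher. That call was lost when transgenic replicate 2 or any of the controls was left out (adjusted p up to 0.123). None fell over all arrays, and 0 did at an unadjusted p under 0.05, whereas 14 of 20 fell on the 5 arrays, against 14.5% of all genes, and 1 rose, against 14%. Their median relative to the control mean was 0.74 on transgenic replicate 1, -0.59 on replicate 2 and -0.58 on replicate 3. All 20 were above every control on replicate 1, against 32% of all genes. Mki67, the antigen of proliferating cells, named after its values were seen, had 10.33, 8.74 and 8.67 on the transgenic arrays and 9.72, 9.57 and 9.73 on the control arrays. No difference between the G2/M and the replication genes was tested.

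Marker levels of crypt and villus cells also differed between transgenic replicate 1 and the other transgenic arrays. Enterocyte markers had mean levels of 10.19, 12.29 and 12.24 on the transgenic arrays, against 12.52, 12.44 and 12.53 on the control arrays. On transgenic replicate 1, 9 of 9 were below all controls, against 45.6% of all genes. Over all arrays 0 of the 9 passed (1 lower at an unadjusted p under 0.05). On the 5 arrays 3 fell, against 14.5% of all genes. They were Sis, the sucrase-isomaltase, by 1.17 (adjusted p = 6.17e-05), Fabp1 by 0.48 and Lct by 0.26. The other 6 did not pass there, and the median of the 9 differences was -0.07. Paneth cell markers had mean levels of 12.01, 9.67 and 9.62 on the transgenic arrays, against 11.09, 11.15 and 11.07 on the control arrays. All 4 were above every control on replicate 1 and below every control on replicates 2 and 3, against 5.1% of all genes. All 4 fell on the 5 arrays, against 14.5% of all genes. Crypt stem cell markers had 8.59, 7.66 and 7.67 on the transgenic arrays, against 8.71, 8.72 and 8.88 on the control arrays. Of these 7 markers 2 fell over all arrays, against 5.84% of all genes, and 5 on the 5 arrays, against 14.5%. Lgr5, Smoc2, Rnf43 and Slc12a2 were above all controls on replicate 1 and below them on replicates 2 and 3, and the other 3 were not. Olfm4 had 8.61, 8.20 and 8.15 on the transgenic arrays and 11.68, 11.50 and 11.89 on the control arrays, and over all arrays fell by 3.37 (adjusted p = 9.31e-04). Ascl2 had 5.84, 5.40 and 5.87 on the transgenic arrays and 6.54, 6.75 and 6.91 on the control arrays, and fell by 1.03 (adjusted p = 0.0142). Both were thus low on all transgenic arrays, whereas Axin2 was below all controls on replicate 1 and above them on replicates 2 and 3.

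Leukocyte markers had mean levels of 6.13, 6.81 and 6.75 on the transgenic arrays, against 7.11, 7.27 and 7.29 on the control arrays. Of the 7 measured, 0 passed over all arrays (1 lower at an unadjusted p under 0.05). On the 5 arrays 4 fell, against 14.5% of all genes. These 4 did not share 1 pattern. Ptprc, Cd3e and Cd8a differed from the control mean by -2.24, -2.42 and -2.68 on replicate 1, and by -0.64, -0.48 and -0.62 on the 5 arrays. Lyz2 had the largest fall of the 7 on the 5 arrays, 1.65, and differed by 0.16 on replicate 1. The other 3 did not pass, among them Cd79a at 0.41. Markers of stroma, vessels and muscle had 6.14, 6.09 and 6.30 on the transgenic arrays, against 6.31, 6.39 and 6.29 on the control arrays. Over all arrays 1 of 9 passed, which is near the 11.9% of all genes. Vim fell by 0.89 over all arrays (adjusted p = 0.0227) and fell by 0.71 on the 5 arrays (adjusted p = 4.79e-04). The part of crypt, villus and leukocyte content in the differences of the replication genes was not tested.

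**Figure D5:**
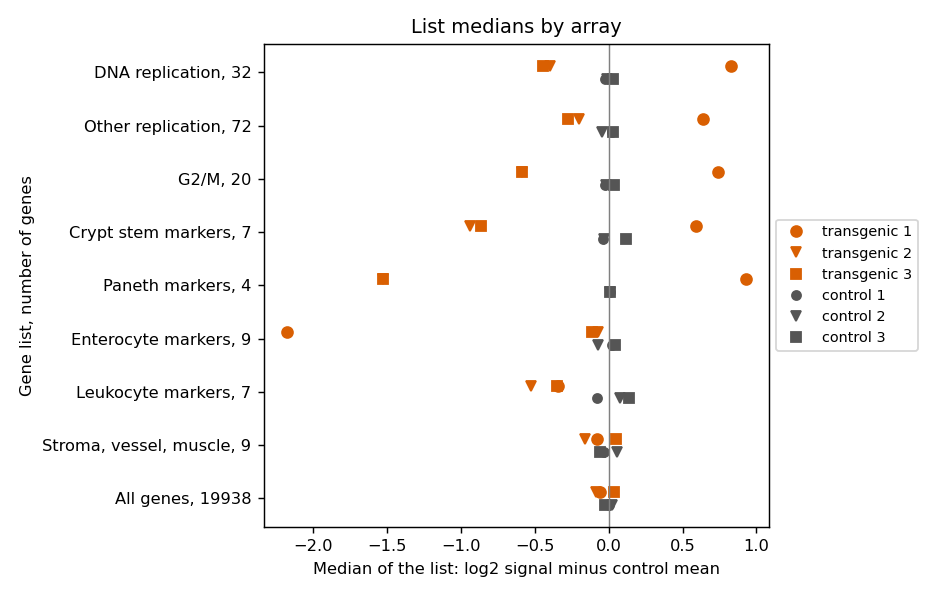
Median over each gene list of the log2 signal minus the mean of the 3 control arrays, with 1 symbol per array, transgenic in orange above control in grey. Replication, G2/M, crypt stem and Paneth lists are right of 0 on transgenic replicate 1 and left of 0 on replicates 2 and 3, and enterocyte markers are far left on replicate 1 only.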

How the data were processed

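Total RNA, 250 ng per array, was hybridised to Affymetrix mouse gene arrays. The log2 values deposited by the authors were made with RMA and Partek 6.5, per the submitters' processing notes. Their settings are not known here. RMA makes arrays alike in distribution, so a change in total RNA cannot show, and it compresses low signals. Of 35399 rows, 21789 had 1 gene symbol in the platform annotation, 1621 several and 11989 none. The brightest row per gene was kept for the 999 genes with several rows.

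The tests used lmFit and eBayes of limma 3.58.1 (R 4.3.3) on all 19938 genes with Benjamini-Hochberg adjustment. Calls needed an adjusted p under 0.05. Every adjusted p printed for a gene, on 6 or 5 arrays, comes from this limma test, which was tested on simulated data, and for second rows it ran over all rows with 1 symbol. Titles gave the groups, and each array is 1 animal by the design text. All 32 genes are named, with the called genes of the other replication and G2/M lists, up to 6 per list by smallest p. Markers are given by list counts, with the ones called over all arrays named. Some markers not called over all arrays are named too, and all were named after their values were seen. Members and lists were chosen with earlier results of these data known. Sequences are from RefSeq promoter tables.

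Alternatives were quantile normalization, equal medians, removal of the dimmest 40% of genes, replicate blocks, array weights, eBayes with its trend and robust options, row means, an adjusted p under 0.1, and leaving out each array. Those on the 5 arrays were added after the data were seen.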

Additional observations from a re-analysis of the deposited data

How the results depend on the processing

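With each array left out in turn, the called counts ranged from 1 to 22 lower members, the upper end without transgenic replicate 1, from 683 to 5700 of all genes, from 2 to 6 higher and 0 to 28 lower other replication genes, and from 0 to 1 higher and 0 to 14 lower G2/M genes. No member was called higher in any setting run. The median member difference ranged from -0.44 to 0.26. Members called lower numbered 2 with quantile normalization, 2 without the dimmest 40% of genes, 3 at an adjusted p under 0.1 and 10 with array weights. Lig1 was the added call with quantile normalization (limma adjusted p = 0.0485) and the dim filter (limma adjusted p = 0.0472). Deviations from the group means of same-numbered arrays correlated at -0.07, -0.17 and -0.12, and those of differently numbered arrays at -0.02 to 0.15. These values gave no sign that the replicate number pairs the samples. With 3 arrays per group, and transgenic replicate 1 apart from the others, they cannot exclude a pairing. With the title numbers as a replicate block, 733 genes were called in all, with 0 lower other replication and 0 higher G2/M genes. The description numbers as a replicate block share only 2 numbers between groups, so transgenic replicate 1 and control replicate 1 add nothing to the difference. That fit equals the replicate block on the 5 arrays, and its counts were 4019 for all genes, 15 lower members, 7 higher and 20 lower other replication genes and 13 lower G2/M genes. Array weights gave 5770, 8 higher and 21 lower other replication and 11 lower G2/M genes. Lower other replication genes numbered 1 with equal medians and 1 with trend and robust settings. On the 5 arrays, the median without transgenic replicate 3 was -0.40.

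Member differences, none of them called over all arrays, changed sign as follows. With equal array medians they were Mcm7 0.024, Cdt1 0.020, Rfc4 0.0049 and Tyms 0.015. With array weights they were Mcm2 -0.22, Mcm4 -0.35, Cdc6 -0.16, Cdc45 -0.25, Gins1 -0.50, Ccne2 -0.18, Pcna -0.027, Rfc3 -0.12, Rrm2 -0.057, Dut -0.042, Chaf1a -0.31 and Chaf1b -0.40. With the description-number replicate block they were Mcm2 -0.40, Mcm3 -0.096, Mcm4 -0.57, Cdc6 -0.11, Cdc45 -0.29, Gins1 -0.45, Ccne2 -0.31, Pcna -0.032, Rfc3 -0.10, Rrm1 -0.068, Rrm2 -0.12, Dut -0.17, Chaf1a -0.30, Chaf1b -0.54 and Slbp -0.072. Leaving out 1 array gave ranges across 0 for 22 members, namely Mcm2 -0.33 to 0.67, Mcm3 -0.081 to 1.06, Mcm4 -0.53 to 0.37, Mcm5 -0.81 to 0.11, Mcm7 -0.57 to 0.26, Cdc6 -0.16 to 0.33, Cdt1 -0.45 to 0.25, Mcm10 -0.32 to 0.070, Cdc45 -0.29 to 0.22, Gins1 -0.54 to 0.49, Ccne2 -0.33 to 0.41, Prim1 -0.72 to 0.34, Pcna -0.044 to 0.28, Rfc3 -0.17 to 0.28, Rfc4 -0.53 to 0.27, Rrm1 -0.026 to 0.81, Rrm2 -0.15 to 1.06, Tyms -0.42 to 0.20, Dut -0.12 to 0.58, Chaf1a -0.36 to 0.25, Chaf1b -0.52 to 0.37 and Slbp -0.089 to 0.39. The cause was not tested, beyond transgenic replicate 1 being the array left out at the low end. With 3 arrays per group, dim genes and small differences are the least certain.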
